A study of Mus musculus with 2 samples.

Results

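The 5 loci described here are those of Egr1, Egr2, Egr3, Nr4a1 and Zbtb16, genes that are switched on by signals from the T cell receptor (TCR) or that act downstream of such genes. Each locus was taken as a fixed window of the mm9 mouse genome, and every interval of the TCF1 list that overlapped a window by at least 1 bp was counted as part of it. The windows were chr18:34970000-35080000 for Egr1 (110 kb), chr10:66940000-67060000 for Egr2 (120 kb), chr14:70420000-70540000 for Egr3 (120 kb), chr15:101030000-101160000 for Nr4a1 (130 kb) and chr9:48410000-48700000 for Zbtb16 (290 kb). Together they held 81 of the 104683 listed intervals. The list came from 1 chromatin immunoprecipitation (ChIP) library made with an antibody to TCF1 from γδ T thymocytes. These were sorted as CD24-positive cells with little or no CFP from C57BL/6 mice of the genotype TCRbeta KO, Sox13tg+, Sox13 ECFP KI/+. The input library of the same cells had no antibody and was not analysed here. All cells thus lacked the TCRβ gene and carried a Sox13 transgene, whose promoter is not given in the sources used here, and there was no group without the transgene. An interval list holds no expression values, so the cell type could not be checked against its markers.

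TCF1 is the product of Tcf7 and a DNA-binding protein of the HMG-box class that T cell precursors need. Egr1, Egr2 and Egr3 encode zinc finger transcription factors that are induced within minutes to hours of TCR signalling through the ERK and calcium pathways, and Nr4a1 encodes the orphan nuclear receptor NUR77, widely used as a marker of recent TCR signalling. In γδ thymocytes the strength of the TCR signal is known to bear on which effector type the cell takes up, and EGR factors are part of that response. Zbtb16 encodes PLZF, a BTB zinc finger factor that gives innate-like T cells, among them subsets of γδ T cells and natural killer T cells, their rapid effector behaviour. EGR factors are known to act upstream of Zbtb16 in natural killer T cells.

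Promoter sequence was at hand for 2 of the 5 genes, Egr2 and Nr4a1, from RefSeq (build GRCm38.p6). It was searched for the CArG box, the AP-1-like element TGCGTCA and the TCF core CTTTGA, and for no other element. Whether TCR signals act through the matches was not tested. The 250 bases before each transcript start were searched on both strands. Positions in this paragraph are of GRCm38.p6, not of mm9, so they cannot be set against the intervals, and whether an interval covers either promoter was not determined. Egr2 had 5 listed starts, and the stretches before 4 of them held a CArG box, the element bound by serum response factor, against 1.47% of 32851 promoter sequences of the same length. Nr4a1 had 1 listed start and 4 matches to the AP-1-like element TGCGTCA, at -235, -215, -71 and -42 from the start. Of all promoter sequences, 1.75% held at least 1 such match. The elements were set by name and not found by a search over all motifs, so these shares are no test of enrichment. The TCF core CTTTGA was in none of the 6 sequences of Egr2 and Nr4a1 and in 13.8% of all, which says only that these letters are not in these windows. Capitals mark the match in each 30-base stretch on the plus strand.
Egr2, chr10:67537484-67537513: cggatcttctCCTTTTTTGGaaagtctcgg
Egr2, chr10:67537787-67537816: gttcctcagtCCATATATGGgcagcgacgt
Nr4a1, chr15:101266600-101266629: tccgcgctcccTGCGTCAatggaaccccgc
Nr4a1, chr15:101266620-101266649: ggaaccccgcgTGCGTCAcgcgcgcagaca
Nr4a1, chr15:101266764-101266793: gccgggccgtgTGCGTCAgtggcgcccccg
Nr4a1, chr15:101266793-101266822: gcccctctccaTGCGTCAcggagcgcttaa
The 2 Egr2 stretches carry different CArG boxes, and the second lies before 3 starts that are close together.

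Each of the 5 loci carried several TCF1 intervals, but they were arranged in different ways. In the windows of Egr1, Egr2, Egr3 and Zbtb16, 5 or 6 intervals lay packed within 2.85 to 5.75 kb, while the Nr4a1 window was filled along most of its length. The counts were 13 for Egr1 (95% Poisson interval 6.92 to 22.2), 9 for Egr2 (4.12 to 17.1), 12 for Egr3 (6.20 to 21.0), 32 for Nr4a1 (21.9 to 45.2) and 15 for Zbtb16 (8.40 to 24.7). Because the windows differ in length, density is given as well. It was 24.62 intervals per 100 kb at Nr4a1, 11.82 at Egr1, 10 at Egr3, 7.50 at Egr2 and 5.17 at Zbtb16. The Nr4a1 density was 4.76 times that of Zbtb16 (exact 95% interval of the ratio 2.50 to 9.46), 3.28 times that of Egr2 (1.53 to 7.82), 2.46 times that of Egr3 (1.23 to 5.25) and 2.08 times that of Egr1 (1.06 to 4.32). The 3 Egr loci could not be separated from one another, with Egr1 against Egr2 at 1.58 (0.623 to 4.18), Egr1 against Egr3 at 1.18 (0.497 to 2.83) and Egr3 against Egr2 at 1.33 (0.516 to 3.58). Against Zbtb16 the ratios were 2.28 for Egr1 (1.00 to 5.15), 1.93 for Egr3 (0.826 to 4.42) and 1.45 for Egr2 (0.559 to 3.54). These ranges reflect counting error alone and take the listed intervals to be independent of each other, which close neighbours are not. Density also depends on how much flank a fixed window holds. The central 50% held 11 of 13 intervals at Egr1, 9 of 9 at Egr2, 8 of 12 at Egr3, 18 of 32 at Nr4a1 and 4 of 15 at Zbtb16. The excess of Nr4a1 in density was thus smaller there over the Egr loci and larger over Zbtb16. No range was computed for this central part. With 1 library there was no replicate, so no difference was tested against spread between samples.

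**Figure D1:**
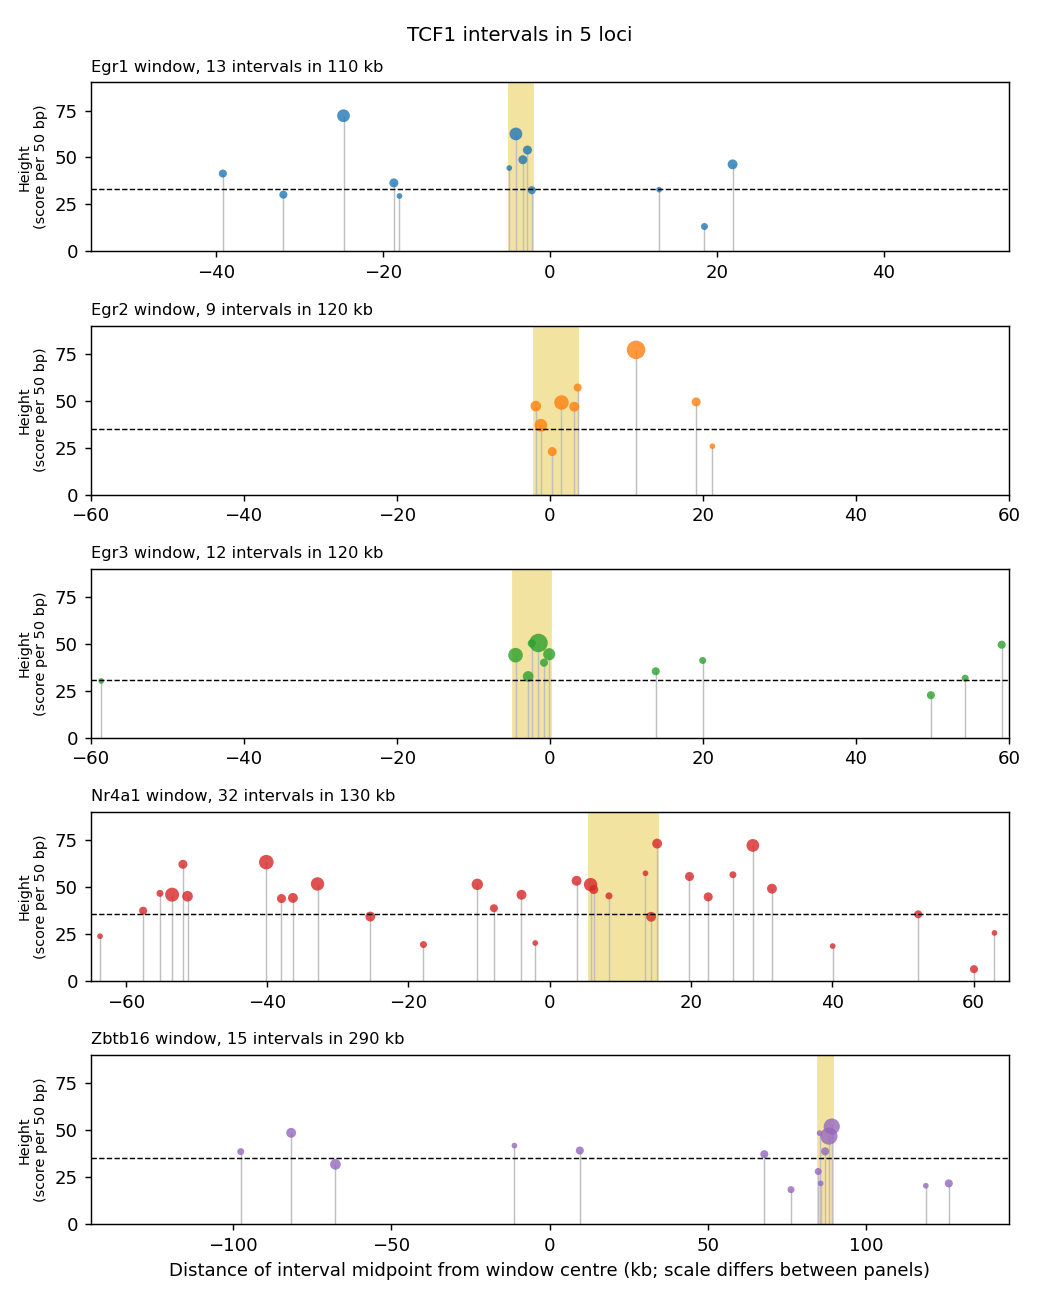
Height of each listed TCF1 interval (score per 50 bp, vertical axis) against the distance of its midpoint from the centre of its window (kb, horizontal axis, scaled differently in each panel) for the 5 loci. Point area grows with interval width, the dashed line is the median height of all intervals on that chromosome, and the yellow band is the stretch of at most 10 kb by interval starts with the most intervals. The bands of Egr1, Egr2, Egr3 and Zbtb16 hold 5, 6, 6 and 6 points in 2.85, 5.75, 4.95 and 4.75 kb, and that of Nr4a1 holds 6 in 9.85 kb.

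Set against same-size windows laid end to end along the same chromosome, the Nr4a1 window was among the fullest and the Zbtb16 window was not. For Nr4a1, 2.08% of 771 windows of 130 kb on chromosome 15 held at least 32 intervals, and the median window held 3. For Egr3, 3.94% of 1016 windows on chromosome 14 held at least 12, with a median of 3, and for Egr1, 4.03% of 794 windows on chromosome 18 held at least 13, with a median of 3. For Egr2, 12.8% of 1056 windows on chromosome 10 held at least 9, again with a median of 3. For Zbtb16, 28.0% of 415 windows of 290 kb on chromosome 9 held at least 15, and the median was 9. The Zbtb16 count was therefore 1.67 times the median window, against 10.7 times for Nr4a1, 4.33 for Egr1, 4 for Egr3 and 3 for Egr2. The comparison windows were placed without regard to genes, whereas each locus holds at least 1 gene, and whether windows placed on other genes hold as many intervals was not tested. Against windows of all 19 autosomes the shares rose to 7.79% for Egr1, 10.5% for Egr3 and 16.4% for Egr2, so the standing of Egr1 and Egr3 depends on the chromosomes they lie on.

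**Figure D2:**
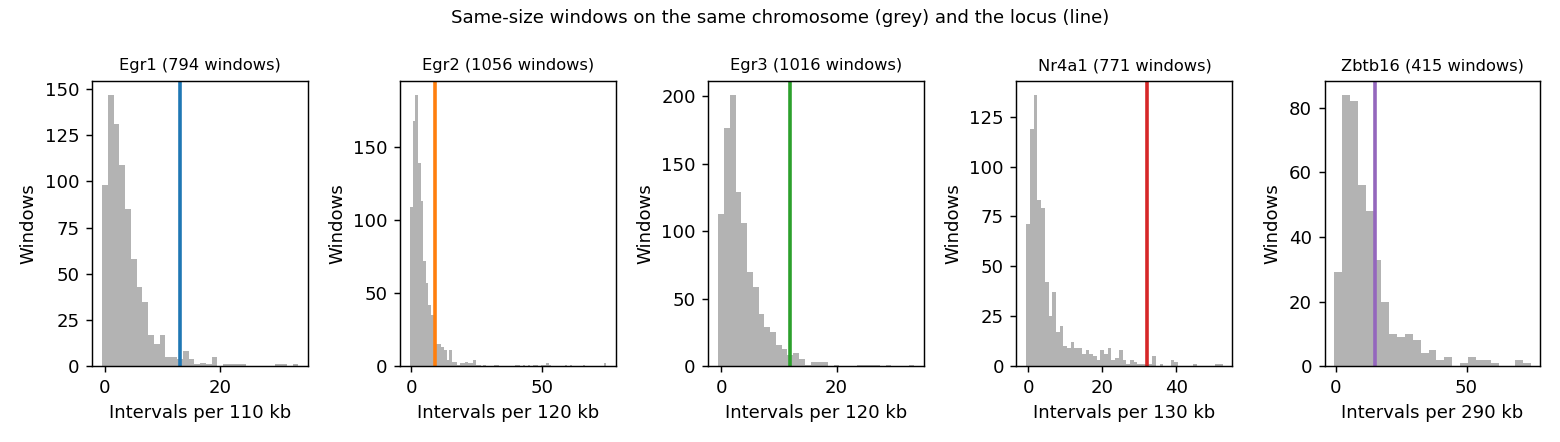
Number of windows (vertical axis) by number of TCF1 intervals they hold (horizontal axis), for windows of the same size as each locus on its own chromosome, with the coloured line at the locus itself. The line lies far in the right tail for Nr4a1 (32 intervals, 2.08% of windows as full) and inside the main body for Zbtb16 (15 intervals, 28.0%).

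Part of these counts came from close neighbours, above all in the 3 Egr windows. After intervals at most 1000 bp apart were joined, Egr1 went from 13 to 8, Egr2 from 9 to 6, Egr3 from 12 to 8, Zbtb16 from 15 to 11 and Nr4a1 from 32 to 28. With joining, 8.94% of windows were as full as Egr1, 8.27% as full as Egr3, 21.1% as full as Egr2 and 36.4% as full as Zbtb16. None of the comparison windows of 130 kb on chromosome 15 held as many separate places as the 28 at Nr4a1 (0 of 771). Windows at other offsets were not examined after joining. The largest joined group held 5 intervals at Egr1 and at Egr3, 3 at Nr4a1 and at Zbtb16, and 2 at Egr2. The median gap between neighbours was 4225 bp at Egr1, 1150 bp at Egr2, 4300 bp at Egr3, 2500 bp at Nr4a1 and 8350 bp at Zbtb16.

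At the Egr1 locus, which encodes the immediate early factor, 5 intervals lay between chr18:35020101 and 35022950. They held 45.4% of the summed score of the window. The highest score of the locus was outside this group, at chr18:35000051-35000550, which was 500 bp wide with a score of 722.25. Score, as deposited, has no stated meaning and grows with width, so height, the score per 50 bp of interval, is given beside it. Height was not free of width either. The 50.5 of a 1050 bp interval at Egr3 was reached by 17.9% of the list but by 62.7% of intervals of that width. For the 44.4 of a 100 bp interval at Egr1 these shares were 28.2% and 9.42%. The height of chr18:35000051-35000550 was 72.2, which 1.86% of the whole list reached. The second, chr18:35020701-35021200, lay inside the group with a score of 625.25 and a height of 62.5. The next by score were chr18:35046751-35047050 (278), chr18:35022201-35022450 (269.75) and chr18:35021651-35021900 (244). The lowest height was 13.2 at chr18:35043451-35043600. Heights thus ran from 13.2 to 72.2 with a median of 41.4. The 5 grouped intervals had a median of 48.8, and the other 8 had a median of 34.7 with a range of 13.2 to 72.2, so the sets overlapped widely.

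The Egr2 locus, which encodes the factor also called KROX20, had the fewest intervals of the 5 and the strongest single one. That interval, chr10:67010751-67011800, was 1050 bp wide, and its score of 1618.25 made up 41.8% of the summed score of the window. Scores this high were found in 0.275% of the list, widths this great in 0.771% and heights of 77.1 in 1.09%. It stood 7000 bp from the nearest listed interval on one side and 7200 bp on the other. Before it came a group of 6 intervals between chr10:66998001 and 67003750, with heights from 22.9 to 57.0. Within that group were the next by score, chr10:67001201-67001850 (637.25), chr10:66998601-66999100 (369), chr10:66998001-66998350 (330) and chr10:67003051-67003350 (280.75). The second height of the locus, 57.0, belonged to a narrower member of the group, chr10:67003551-67003750, and the lowest, 22.9, to chr10:67000201-67000450. All 9 intervals lay within the central 50% of the window. The median height was 47.1, the highest of the 5 loci, but its 95% interval of 25.8 to 57.0 spanned the medians of the other 4.

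At the Egr3 locus, which encodes a close relative of EGR2, 1 group held most of the score. The 6 intervals between chr14:70475201 and 70480150 held 78.7% of the summed score of the window, and they covered 2900 bp of those 4.95 kb. The 5 highest scores of the locus were all among them. The first, chr14:70478001-70479050, was 1050 bp wide with a score of 1060.5, which 1.27% of the list reached. It was followed by chr14:70475201-70475850 (572), chr14:70479701-70480150 (400.5), chr14:70477001-70477350 (228.75) and chr14:70477551-70477750 (201). The group had a median height of 44.2, against 33.6 for the other 6 intervals of the window, which ran from 22.7 to 49.6. Widths were 200 to 1050 bp in the group and 100 to 200 bp in the others. The shares of intervals of the same width that scored as high were 66.4, 69.5, 11.2, 62.7, 30.3 and 51.5% in the group. For the others these shares were 36.3, 41.9, 19.8, 72.9, 42.4 and 12.2%, so the group did not stand higher at equal width. The highest height of the locus was 50.5, which 17.9% of the list reached, and the next was 50.2. The lowest was 22.7 at chr14:70529701-70529900, and the median was 40.6. One stretch of 53750 bp before the group held no listed interval. Of windows on chromosome 14, 1.97% had 6 or more intervals in some 10 kb.

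Nr4a1 differed from the Egr loci in that no group dominated. The fullest 10 kb stretch, from chr15:101100501 to 101110350, held 6 of the 32 intervals and 20.02% of the summed score. On chromosome 15, 7.13% of windows had 6 or more in some 10 kb, so this local packing was more common than the total count. The 5 highest scores were spread from one side of the window to the other, at chr15:101054551-101055200 (822.75), chr15:101123501-101124000 (722), chr15:101061851-101062400 (568.75), chr15:101100501-101101050 (564.5) and chr15:101041251-101041850 (551.75). The highest of them made up 9.67% of the summed score, against 24.1 to 41.8% in the other 4 loci. Such shares fall as more intervals are summed, and this window held 32 against 9 to 15 in the others. The contrast in shares therefore partly restates the count. Height peaked at 73.2 in an interval of 300 bp, chr15:101110051-101110350, followed by 72.2 at chr15:101123501-101124000. The lowest height of the 81 intervals, 6.31, was also in this window, at chr15:101154951-101155150. The longest stretch with no interval was 11950 bp. Intervals covered 8850 bp, or 6.81% of the window, against 1.38 to 3.25% in the other loci.

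The Zbtb16 window was the longest and the most sparsely filled, with 1 group far from its centre. The 6 intervals between chr9:48639701 and 48644450 held 63.1% of the summed score. A pair of intervals 50 bp apart made up most of that group, chr9:48642701-48643600 with a score of 844.5 and chr9:48643651-48644450 with 832.5. Widths as great as their 900 and 800 bp occurred in 1.47% and 2.26% of the list. Their heights were 46.9 and 52.0, which 23.5% and 15.8% of the list reached. Outside the group the highest scores were 292 at chr9:48473201-48473500, 223.25 at chr9:48487151-48487500 and 157 at chr9:48564401-48564600. The second height of the locus was 48.7, in the first of these 3. The lowest was 18.4 at chr9:48631101-48631250. The 2 longest stretches of the window without an interval were 56300 and 58050 bp. Of windows on chromosome 9, 8.43% had 6 or more intervals in some 10 kb, so before joining the packing at Zbtb16 stood further out than its count.

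For the other Egr loci, 3.50% of windows on chromosome 10 had as many intervals in 10 kb as the 6 at Egr2, and 4.66% on chromosome 18 had as many as the 5 at Egr1. This measure of packing was chosen after the positions were seen. Joined within 1000 bp, the fullest 10 kb held 3 places at each Egr locus, 4 at Nr4a1 and 2 at Zbtb16, and 10 to 13.3% of windows for the Egr loci, 9.21% for Nr4a1 and 70.8% for Zbtb16 held as many. The packing at Zbtb16 thus consists of intervals at most 1000 bp apart in large part.

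In height the 5 loci overlapped. The medians were 47.1 for Egr2, 45.6 for Nr4a1 (95% interval 37.4 to 51.5), 41.4 for Egr1 (30.2 to 54.0), 40.6 for Egr3 (31.8 to 49.6) and 38.7 for Zbtb16 (21.8 to 46.9), and every one of these intervals overlapped the others. Each median was above that of its chromosome, which ran from 30.6 on chromosome 14 to 35.6 on chromosome 15. Median width was 300 bp at Egr2, 250 bp at Nr4a1 and 200 bp at the other loci. Median heights were not adjusted for width. Among same-size windows with at least 3 intervals, the median height was as high in 6.74% of 445 for Nr4a1, 7.08% of 593 for Egr2, 17.0% of 418 for Egr1, 18.8% of 526 for Egr3 and 23.1% of 386 for Zbtb16. With only the upper 50% of the list by score, these shares were 42.2% for Nr4a1, 31.8% for Egr2, 30.4% for Egr1, 57.7% for Egr3 and 83.0% for Zbtb16, so no locus stood out by median height among stronger intervals. The highest interval set the loci in another order. A height of at least 77.1 was reached in 5.49% of 947 windows with an interval for Egr2, a height of 72.2 in 7.33% of 696 for Egr1, and a height of 73.2 in 8.86% of 700 for Nr4a1. A window with more intervals has more chances of a high one. These loci held 9, 13 and 32 intervals, against 3 in the median same-size window. The windows were not matched for count, so these shares partly restate the counts. For Egr3 and Zbtb16 the highest interval was ordinary by this measure, with 34.4% of 903 and 61.8% of 414 windows as high. Ranked by score instead, the highest interval of Egr3 was matched in 4.76% of windows and that of Egr2 in 1.48%; both were 1050 bp wide.

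**Figure D3:**
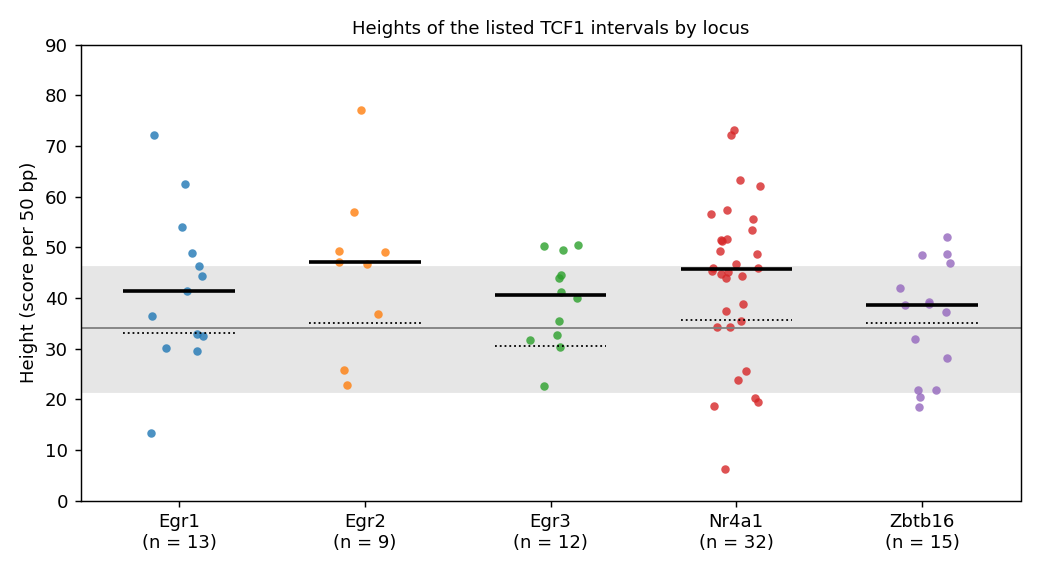
Height (score per 50 bp, vertical axis) of every listed interval in the 5 loci, spread sideways at random for legibility. Thick bars are locus medians, dotted bars are the medians of the whole chromosome, and the grey line and band are the median (34.0) and the quartiles (21.5 to 46.1) of the whole list. The medians of the 5 loci, 38.7 to 47.1, lie above the line while the points of all loci overlap.

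Over the 81 intervals, 58 (71.6%) were higher than the median height of the whole list, which by the definition of a median 49.9% of all intervals were. By locus these were 26 of 32 at Nr4a1, 7 of 9 at Egr2, 8 of 12 at Egr3, 8 of 13 at Egr1 and 9 of 15 at Zbtb16. The upper end did not follow. Only 9 of 81 (11.1%) lay above the 90th percentile of height, against 10% of the list, and they were 5 at Nr4a1, 2 at Egr1, 2 at Egr2 and none at Egr3 or Zbtb16. By score, 13 of 81 (16.0%) were at or above the 90th percentile, against 10% of the list, with 5 at Nr4a1 and 2 at each of the other loci. Intervals of at least 1 kb numbered 2 of 81, those of Egr2 and Egr3 named above, against 0.969% of the list. Since the intervals of a locus share their surroundings, these shares describe the set and carry no test.

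**Figure D4:**
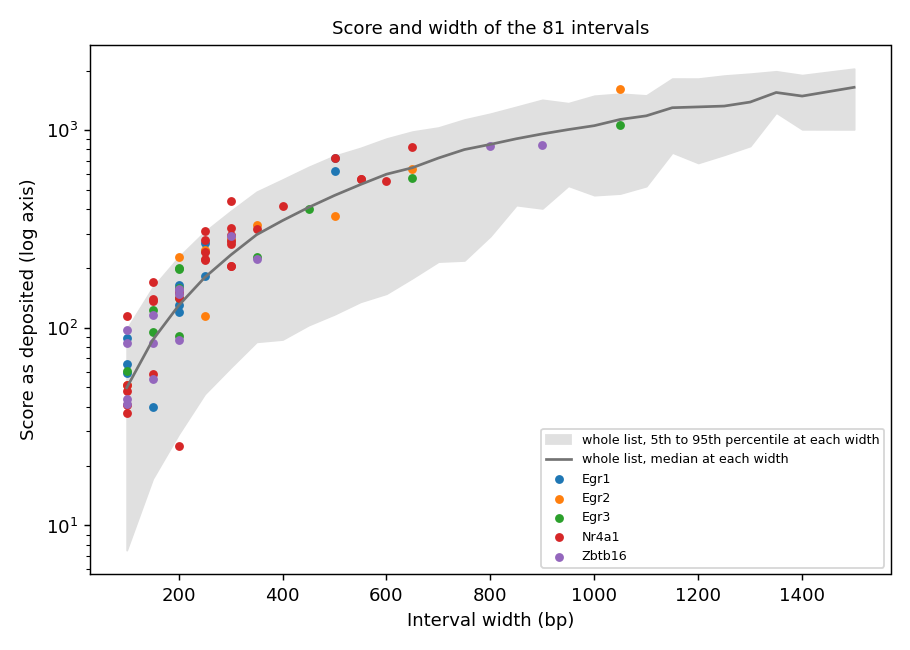
Score as deposited (vertical log axis) against interval width (bp, horizontal axis) for the 81 intervals, coloured by locus, over the 5th to 95th percentile (grey) and the median (line) of the whole list at each width with at least 20 intervals. The widest 2 points, both 1050 bp, are the top intervals of Egr2 (score 1618.25) and Egr3 (1060.5).

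Compared at equal width, the top interval of Egr2 stayed apart and that of Egr3 did not. Of the list's 166 intervals of 1050 bp, 2.41% scored as high as the one at Egr2 and 62.7% as high as the one at Egr3. The 2 wide intervals of Zbtb16 were matched by 72.5% of intervals of 900 bp and 54.2% of those of 800 bp. The top intervals of Egr1 and Nr4a1 were matched by 6.30% of intervals of 500 bp and 18.3% of those of 650 bp. Of the 81, 55 scored above the middle of their own width class, as did 49.9% of the whole list by construction. These were 24 of 32 at Nr4a1, 11 of 13 at Egr1, 7 of 12 at Egr3, 6 of 9 at Egr2 and 7 of 15 at Zbtb16.

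Listed intervals lay close outside the window borders at 3 places. Outside but within 3 kb of a border lay an interval 850 bp before the Egr1 window with a height of 40.0, one 2701 bp after the Egr3 window with a height of 51.5, and one 1550 bp before the Nr4a1 window with a height of 53.8. The outermost intervals inside these borders had heights of 41.4, 49.6 and 23.9. The longest distance from a border to the next listed interval was 101851 bp, after the Egr2 window. Before that window it was 11100 bp, which was less than the 78850 bp before Zbtb16 and the 27100 bp before Egr3. By gene order in RefSeq (GRCm38), the nearest protein-coding neighbours are Reep2 and Etf1 for Egr1, Nrbf2 and Ado for Egr2, Pebp4 and Bin3 for Egr3, Grasp and Atg101 for Nr4a1, and Nnmt on one side of Zbtb16. No mm9 annotation was used here, so intervals were assigned neither to these genes nor to promoters, exons or introns, and an interval in a window named for a gene may lie nearer to another gene. The other genes of the TCR response that were considered (Egr4, Nr4a2, Nr4a3, Nab1, Nab2, Id2, Id3 and Nfatc1) were not placed for the same reason.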

How the data were processed

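The deposited file lists 104683 intervals for 1 TCF1 ChIP library on mm9, per the submitters' processing notes. Column 5 is a score as deposited by the authors, in steps of 0.25. The read depth is unknown. Not given in the sources used here are the meaning of the score, the aligner, the peak caller and the use of input. Per the labels' protocols, fragments of 300 to 500 bp were amplified for 17 PCR cycles. Starts were shifted by 1 to count from 1, and ends were read as inclusive. Height was score divided by width, times 50 bp. Comparison windows were laid end to end from each locus between the first and last interval of its chromosome, without the locus, and median heights were compared where a window had at least 3 intervals. Intervals given are exact Poisson, exact conditional (density ratios) or order-statistic ones (95%). Alternative shares of windows were set against an exact binomial 95% interval, which takes neighbouring windows to be independent. The window code was tested on simulated data. All 5 loci were named, with the 5 highest scores, 2 highest heights and lowest height in each. The members and lists were chosen with earlier results of these data known. The tools were scipy 1.17.1, matplotlib 3.10.9, pandas 2.3.3 and numpy 2.4.6 under Python 3.11.15.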

Additional observations from a re-analysis of the deposited data

How the results depend on the processing

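With 1 library, unknown read depth and no input values, a place without a listed interval is not shown to be free of TCF1, and no value has a replicate check. No paired analysis was possible because only a single ChIP library had a file. Of 231 alternative values, 148 stayed within 1.5 times (counts, highest heights, covered bp) or inside the 95% interval (medians, shares of windows), and 83 moved. None of the values is a call, so none has a direction of its own, but a comparison between them can turn. At Zbtb16 the packing stood further out than the count, at 8.43% against 28.0% of windows. After joining within 1000 bp it stood less far out, at 70.8% against 36.4%. The 10 kb packing measure and its alternatives were chosen after seeing the data. Values below are in the order Egr1, Egr2, Egr3, Nr4a1, Zbtb16, or for the loci named.

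Keeping the upper 10% by score, which leaves fewer intervals by construction, gave counts of 2, 2, 2, 5 and 2 and covered lengths of 1000, 1700, 1700, 2850 and 1700 bp. Median heights became 67.4 (Egr1), 63.0 (Egr2), 51.7 (Nr4a1) and 49.5 (Zbtb16). The shares of windows as full were 8.04% (Egr1), 8.54% (Egr2) and 6.56% (Egr3), those with as high a top interval were 19.4, 14.1, 76.4, 20.8 and 84.3%, and that with as high a median was 69.0% (Nr4a1). The other loci had too few intervals left for a median share. Keeping the upper 50% gave counts of 7 for Egr1 and 7 for Zbtb16, shares as full of 5.67% (Egr1), 7.40% (Egr2) and 0.910% (Nr4a1), shares with as high a median of 30.4, 31.8, 57.7, 42.2 and 83.0%, and shares with as high a top interval of 10.1, 7.42, 49.4, 11.9 and 67.5%. The share of windows with a median as high as that of Nr4a1 or Egr2 is thus small only while low-scoring intervals are counted.

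Joining within 1000 bp gave a count of 8 for Egr1, shares as full of 8.94, 21.1, 8.27, 0 and 36.4%, shares with as high a median of 28.7% (Egr1), 10.7% (Egr2), 27.3% (Egr3) and 29.8% (Zbtb16), and a share of 3.91% with as high a top interval (Egr2). The central 50% of the window held 18 intervals and 4850 bp at Nr4a1, and 4 intervals and 850 bp at Zbtb16. Score in place of height gave shares with as high a median of 34.9% (Egr1), 23.2% (Egr3), 10.1% (Nr4a1) and 58.8% (Zbtb16), and shares with as high a top interval of 14.1, 1.48, 4.76, 13.1 and 26.8%. It was used for shares only, since scores and heights have different units. Windows of all autosomes gave shares as full of 7.79% (Egr1), 16.4% (Egr2) and 10.5% (Egr3), and shares with as high a top interval of 42.1% (Egr3) and 54.9% (Zbtb16). The cause of these shifts was not tested. Assigning intervals by midpoint, shifting the windows by 50% of their length and leaving out empty windows moved no value outside these limits. In stretches of 5 kb and 20 kb the shares of windows as packed were 1.13 and 3.15% for Egr1, 2.84 and 4.83% for Egr2, 0.886 and 2.76% for Egr3, 10.6 and 6.23% for Nr4a1, and 3.61 and 12.5% for Zbtb16.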
